A study of Mus musculus with 48 samples.

Results

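The genes described here are 46 genes of DNA replication and S phase, found by symbol among the 24421 gene rows of the deposited expression tables; every one of the 46 was present in each of the 6 tables. The study sequenced bulk RNA of cells labelled as mouse astrocytes from the cortex, hippocampus and olfactory bulb, in 48 libraries. A developmental series covered postnatal days 1, 7 and 14 (P1, P7 and P14), with 3 libraries per region and age, except 4 for the cortex at P14; its labels give no genotype. At P28 the labels name Gabbr1 control and Gabbr1 cKO animals, a conditional knockout of the gene for the GABA-B receptor's first subunit, with 4 control and 4 cKO libraries for the cortex, 2 and 4 for the hippocampus and 3 and 3 for the olfactory bulb. All P28 hippocampus and olfactory bulb libraries, controls included, carry the treatment label tamoxifen, as do cortex control replicates 3 and 4 and cKO replicate 4. The other 5 cortex P28 libraries carry no treatment label. The labels name neither the Cre driver nor a sort or marker by which the cells were taken, beyond tissue dissociation by a published procedure, and nothing in them says whether regions were taken from the same animals or whether replicates are separate animals. The p-values therefore measure the spread between libraries, which may be partly technical.

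Before a cell copies its genome, the origin recognition complex (Orc1, Orc6) with Cdc6 and Cdt1 loads the ring-shaped Mcm2 to Mcm7 helicase at origins, and Cdc45, the GINS complex and Mcm10 turn that ring into an active helicase. DNA polymerase alpha with its primase starts each strand, polymerases delta and epsilon extend it, the Pcna clamp holds them on DNA after loading by the Rfc complex, and Rpa covers the exposed single strands. Many of these genes are targets of E2F transcription factors and are transcribed mainly around the G1/S transition. In the rodent forebrain, astrocytes are known to divide locally during the early postnatal weeks and to become largely quiescent afterwards.

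Values are read counts divided by 1 factor per library, called normalized reads below; they are not divided by gene length, so levels are compared between libraries and never between genes. Differences are on the scale log2(normalized reads + 1) with their standard error (SE), which understates the change of genes with few reads. A gene was tested in a region where it averaged at least 10 over the libraries of that table, and it was called where the limma-trend adjusted p, adjusted over all genes tested, was under 0.05. "Rose" and "fell" are used only for called genes. In bulk RNA, fewer cells of a type and less RNA per cell cannot be told apart, and this holds for each fall and rise that follows.

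Library depth ran from 1773226 to 15008466 gene reads, and the olfactory bulb P14 libraries (1773226 to 2669394) were the shallowest of their developmental series. Hippocampus P14 libraries held 2539583 to 4248087, overlapping the lower end of P7 there. The 46 genes took 0.0236% to 0.115% of the reads of a library, so single genes often rested on few reads. The ribosomal RNA gene Rn45s took 0.594% of the reads in hippocampus cKO replicate 2 and 0.476% in olfactory bulb control replicate 2 at P28, against 13.7% to 38.0% elsewhere. Gabbr1 separated the labelled genotypes in every region at P28: 927 to 1930 normalized reads in cortex controls against 89.8 to 211 in cKO, 779.8 to 824 against 152 to 379.9 in the hippocampus, and 184 to 318 against 63.6 to 99.5 in the olfactory bulb. The 11 astrocyte markers were all detected in every group, and of the 4 red blood cell markers the haemoglobin genes Hba-a1, Hbb-bs and Hbb-bt were at 0 throughout. The remaining one, Alas2, was at 0 to 46.2 over all libraries, and in the cortex at 13.3 to 39.5 at P1 and 0 to 2.84 at P14; its part in the falls described was not tested.

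Most of the replication genes tested fell from P1 to P14 in each region. In the cortex 30 of the 39 genes tested fell and 1 rose from P1 to P14; over all genes tested there, 40.3% fell and 24.0% rose. In the hippocampus 27 of 46 fell and 2 rose, against 28.5% and 21.0% of all genes. In the olfactory bulb 25 of 42 fell and 3 rose, against 31.4% and 24.8%. The median log2 difference over the genes tested was -1.31 in the cortex, -1.48 in the hippocampus and -1.39 in the olfactory bulb, where all genes had medians of -0.27, -0.29 and -0.24. These counts cover the genes that passed the filter, which a gene can pass through its P1 level alone. Without hippocampus P1 replicate 1, 2 or 3 the genes called there went from 29 to 17, 19 and 19, and without olfactory bulb P1 replicate 2 or 3 those called there went from 28 to 17 and 18. Not tested in the cortex were Cdc6, Mcm10, Gins3, Pole2, Tk1, Chaf1b and Ccne1, and not tested in the olfactory bulb were Gins2, Pold1, Tk1 and Ccne1.

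More genes were called lower in the second step of the series than in the first, both among the replication genes and among all genes tested. The summed level of the 46 genes went down mainly in the first step in the hippocampus and the olfactory bulb. Summed over the 46 genes, the level was 2815 ± 201 at P1, 2453 ± 79 at P7 (SD, n = 3 each) and 1521 ± 84 at P14 (n = 4) in the cortex. In the hippocampus the sum was 3399 ± 237, then 2436 ± 497, then 1989 ± 85, and in the olfactory bulb it was 2940 ± 161, then 1950 ± 261, then 1929 ± 134 (n = 3 each). The P7 and P14 sums of the olfactory bulb overlapped, and in the hippocampus the lowest P7 sum lay within the P14 range. These sums weigh genes with many reads most. From P1 to P7, 2 genes fell in each region and none rose: Mcm7 and the chromatin assembly gene Chaf1a in the cortex, Mcm7 and Pcna in the hippocampus, and Pcna and Rrm2 in the olfactory bulb. The shares of all genes that fell and rose in that step were 18.1% and 15.6% in the cortex, 6.92% and 11.2% in the hippocampus, and 2.98% and 7.59% in the olfactory bulb. The median of the replication genes in this step was -0.33, -0.49 and -0.63 in the 3 regions, beside -0.10, -0.03 and 0.01 for all genes. From P7 to P14, 24 fell and 1 rose in the cortex (all genes 31.3% and 18.6%), 11 fell and none rose in the hippocampus (17.7% and 12.5%), and 12 fell and 3 rose in the olfactory bulb (26.6% and 20.4%). The olfactory bulb count of falls, out of 42 tested, is near the share of all genes there. The medians of the replication genes were -1.19, -0.92 and -0.83, against -0.19, -0.19 and -0.20 for all genes. The MCM ring genes of the olfactory bulb had the larger median in the first step, -1.07 against -0.57 in the second. The 2 steps share the P7 libraries. The hippocampus count of this second step was 5 without P7 replicate 1 or 2 and 17 without P14 replicate 2, and the olfactory bulb count was 9 and 8 without P7 replicates 2 and 3. In the first step the counts ranged from 0 to 3 when 1 library was left out.

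Of 37 replication genes tested in every region, 12 fell from P1 to P14 in all 3: Mcm2, Mcm5, Mcm6, Mcm7, Pole, Pcna, Rfc3, Rfc5, Fen1, Lig1, Rrm1 and Chaf1a. Rfc1 alone rose in all 3. Among all 10838 genes tested in every region, 17.8% fell and 14% rose in all 3. In the cortex the size of a fall depends on the scaling: TMM scaling, which assumes that most genes do not change, moves the median of all genes there from -0.27 to 0.01 between P1 and P14, and the lower share of all called genes from 62.6% to 49.0%. The lower share goes from 53.6% to 42.8% for P7 against P1 and from 62.7% to 47.1% for P14 against P7. With TMM, 26 replication genes fell and 3 rose in the cortex from P1 to P14. In the hippocampus and the olfactory bulb TMM left the medians of all genes at -0.27 and -0.24. Quantile normalization moved them to -0.03 and -0.17, so sizes depend on the processing there too.

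**Figure D1:**
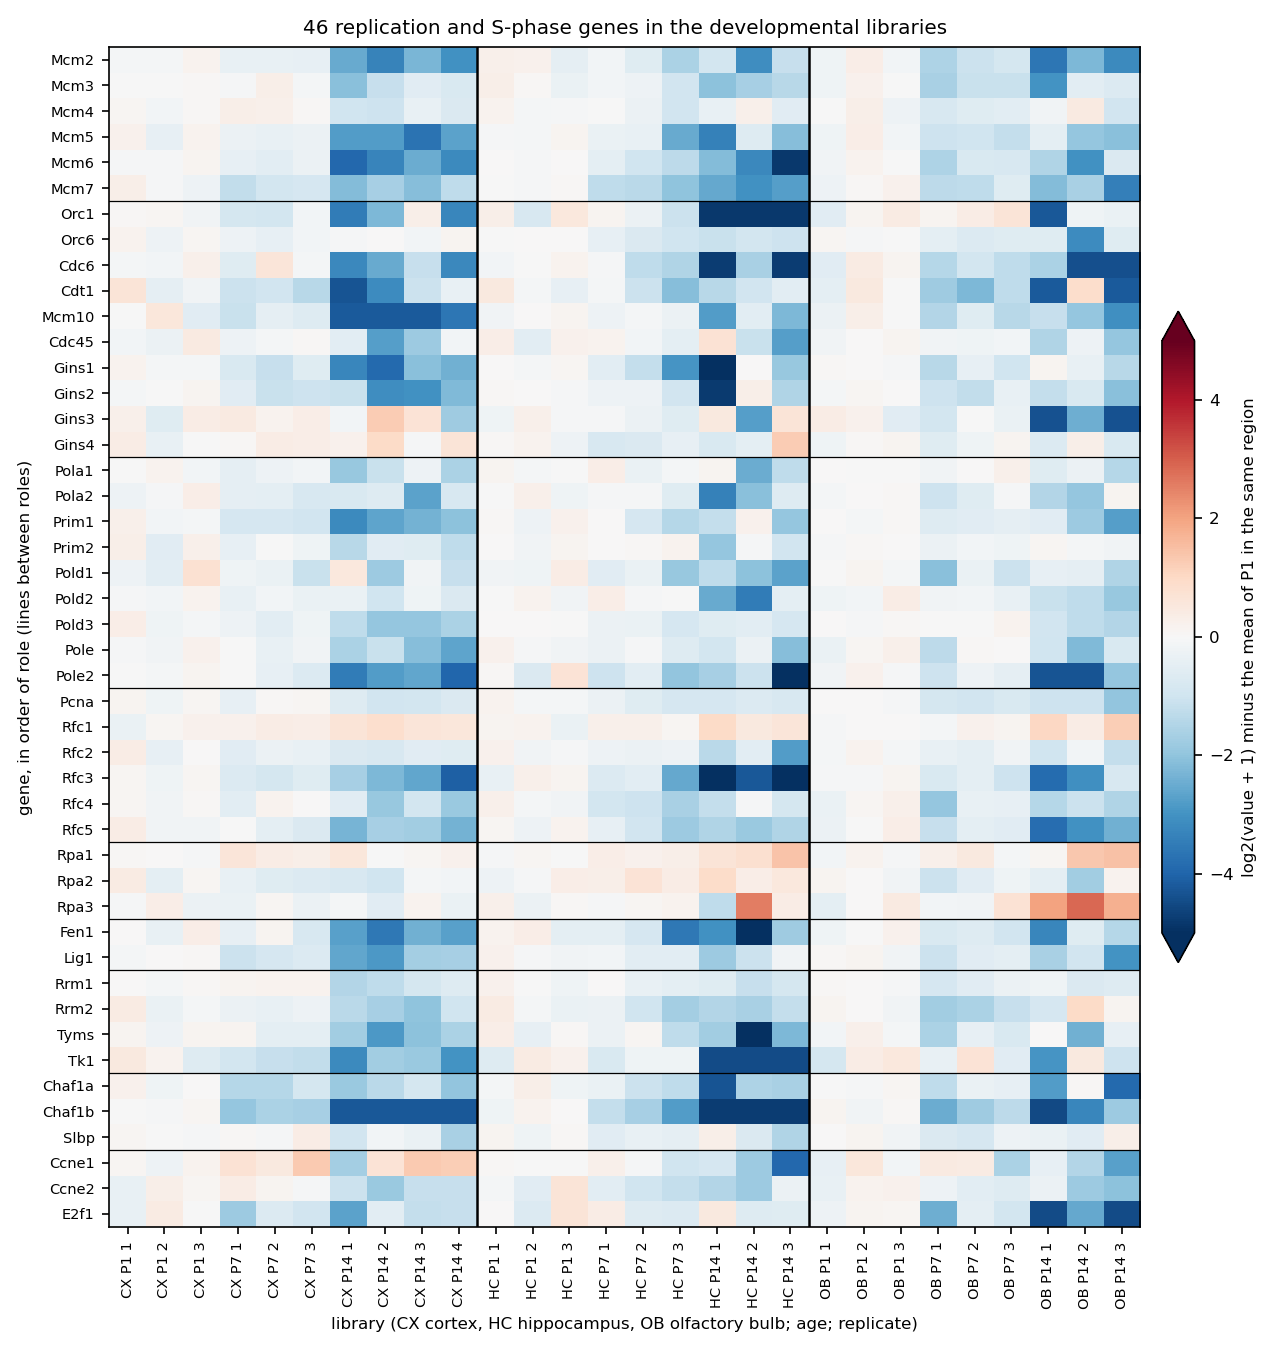
Each cell is 1 gene (rows, in order of role) in 1 developmental library (columns, by region, age and replicate), coloured by log2(normalized reads + 1) minus the mean of the P1 libraries of the same region. Most rows turn to low values in the P14 columns of all 3 regions, whereas Rfc1 is higher there in each region and Rpa3 in the olfactory bulb.

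The 6 genes of the MCM ring, which together form the motor that unwinds DNA, all fell in the cortex between P1 and P14. In the hippocampus 5 of 6 fell and in the olfactory bulb 4 of 6. Of all genes 40.3%, 28.5% and 31.4% fell in the 3 regions, and 24.0%, 21.0% and 24.8% rose. These shares belong beside the count of each role below as well, and each role holds few genes. Mcm6 lies at chr1:128331590-128359664 (mm10, minus strand) and had cortex levels of 121, 118 and 136 at P1, then 94.1, 85.8 and 101 at P7, then 7.19, 11.9, 21.4 and 12.98 at P14. In the hippocampus Mcm6 was at 239, 224 and 238 at P1, then 168, 116 and 93.7 at P7, then 51.6, 24.3 and 7.17 at P14. Olfactory bulb libraries held Mcm6 at 126, 159.8 and 141 at P1, then 48.5, 82.9 and 80.1 at P7, then 49.7, 16.5 and 84.7 at P14. Every P14 library was below every P1 library in each region, and below every P7 library in the cortex and hippocampus, while P7 and P14 overlapped in the olfactory bulb. Mcm6 fell from P1 to P14 in the cortex (-3.22 ± 0.28, adjusted p = 3.35e-07), the hippocampus (-3.40 ± 0.53, adjusted p = 0.000255) and the olfactory bulb (-1.75 ± 0.48, adjusted p = 0.00927).

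Mcm2, which also helps hand on parental histones at the fork, was measured in the cortex at 74.4, 75.1 and 89.8 at P1, then 61.7, 61.9 and 60.3 at P7, then 12.9, 6.92, 15.5 and 8.83 at P14. Its hippocampus values were 123, 116 and 73.1 at P1, then 91.8, 66.9 and 33.1 at P7, then 53.7, 11.03 and 44.8 at P14. Its olfactory bulb values were 72.4, 106 and 75 at P1, then 27.7, 38.6 and 45.1 at P7, then 5.96, 16.5 and 8.33 at P14. P14 lay below P1 without overlap in all 3 regions, and P14 replicate 2 was the lowest hippocampus library. On the log2 scale Mcm2 fell in the cortex (-2.80 ± 0.27, adjusted p = 8.22e-07), the hippocampus (-1.72 ± 0.56, adjusted p = 0.0245) and the olfactory bulb (-3.01 ± 0.40, adjusted p = 8.71e-05). Mcm2 lost its hippocampus call without P1 replicate 1 (-1.58), without P1 replicate 2 (-1.62) or without P14 replicate 2 (-1.03), where the adjusted p reached 0.0826.

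Mcm5 stood in the cortex at 37.8, 23.9 and 36.9 at P1, then 25.96, 24.7 and 25.8 at P7, then 3.78, 3.77, 1.58 and 4.15 at P14. The hippocampus gave 40.95, 40.1 and 46.7 at P1, then 33.8, 32.5 and 6.62 at P7, then 3.22, 26.5 and 8.96 at P14 for Mcm5. The olfactory bulb gave 39.1, 56.4 and 41.4 at P1, then 21.5, 22.2 and 18.98 at P7, then 31.8, 11.03 and 9.72 at P14 for Mcm5. In the cortex the 4 P14 libraries were far under all others, whereas hippocampus P14 replicates 2 and 3 lay within the P7 range and olfactory bulb P14 replicate 1 above it, and in these 2 regions all P14 libraries were under P1. Between P1 and P14 Mcm5 fell in the cortex (-2.99 ± 0.36, adjusted p = 7.82e-06), the hippocampus (-2.05 ± 0.74, adjusted p = 0.0381) and the olfactory bulb (-1.51 ± 0.45, adjusted p = 0.0143). Mcm5 lost its hippocampus call under a pseudocount of 0.1, no filter, quantile normalization, edgeR or DESeq2, or without P1 replicate 1 (-2.08), without P1 replicate 2 (-2.09), without P1 replicate 3 (-1.98), without P14 replicate 1 (-1.40) or without P14 replicate 3 (-2.01), where the adjusted p reached 0.171. Mcm5 lost its olfactory bulb call without P1 replicate 2 (-1.35), where the adjusted p reached 0.0669.

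Among the other ring genes, Mcm7 fell in every region (-1.80 ± 0.26, -2.78 ± 0.31 and -2.41 ± 0.41; adjusted p = 3.38e-05, 2.10e-05 and 0.00049). Mcm3 fell in the cortex (-1.14 ± 0.31) and the hippocampus (-1.71 ± 0.33), and its difference in the olfactory bulb was -1.38 ± 0.56 (adjusted p = 0.0554). Mcm4 had the smallest difference of the ring genes in each region. It fell in the cortex (-0.78 ± 0.17, adjusted p = 0.0012), but in the hippocampus it held 199, 164 and 171 at P1, then 177, 146 and 89.9 at P7, then 139, 209 and 118 at P14. Those P14 values spread below and above the P1 range, a difference of -0.23 ± 0.28 (adjusted p = 0.518), among the 2 smallest in that region. In the olfactory bulb Mcm4 differed by -0.23 ± 0.31 (adjusted p = 0.55).

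Because many genes of this set are textbook E2F targets, their promoters were searched for the E2F-type motifs TTTCGCGC and TTTGGCGC on both strands, in the 250 bases before the annotated start; the motifs can overlap each other on opposite strands. RefSeq promoter sequences (GRCm38.p6) matched 38 of the 46 genes, and 5 of these (13.2%) held a motif: Mcm5, Mcm6, Orc1, Pola1 and Rfc3. Among all 27025 gene symbols with a promoter of this length, 0.759% did. The 3 windows printed here show what the motif looks like in genes that fell, each with 40 bases on either side and the motif bases in capitals, 5′ to 3′ on the gene's strand. Only 39 bases follow the last motif of Mcm6, because the window ends at the start.
Mcm5, chr8:75109316-75109407, plus strand: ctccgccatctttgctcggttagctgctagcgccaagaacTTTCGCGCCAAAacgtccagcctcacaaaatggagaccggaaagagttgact
Mcm6, chr1:128359706-128359855, minus strand: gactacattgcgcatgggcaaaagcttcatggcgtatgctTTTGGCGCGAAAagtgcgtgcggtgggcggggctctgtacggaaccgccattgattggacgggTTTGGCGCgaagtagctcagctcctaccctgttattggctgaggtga
Pola1, chrX:93632246-93632333, minus strand: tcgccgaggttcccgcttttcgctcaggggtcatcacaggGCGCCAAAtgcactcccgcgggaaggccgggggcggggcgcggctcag
In Mcm5 and in the more distant site of Mcm6 the capitals cover 2 motifs that overlap on opposite strands, and Mcm6 has 1 more motif whose first base lies 47 bases before the start. Pola1 has a single motif, read on the opposite strand. With motifs 1 base shorter the share was 18.4% of the 38 genes against 3.66% of all symbols, and with the window extended to 50 bases after the start it was 26.3% against 0.929%. A match describes the letters only.

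Of the 10 genes of origin licensing and helicase activation, 4 of 7 tested fell in the cortex, 4 of 10 in the hippocampus and 4 of 9 in the olfactory bulb, and none rose. Of all genes 40.3%, 28.5% and 31.4% fell, and whether these small counts differ from those shares was not tested. Orc1, an ATPase subunit of the origin recognition complex, had cortex values of 19.6, 20.1 and 16.4 at P1, then 9.81, 9.28 and 16.8 at P7, then 0.757, 3.14, 23.3 and 1.04 at P14. Hippocampus values of Orc1 were 33.1, 15.1 and 39.3 at P1, then 30.2, 21.9 and 12.3 at P7, then 0, 0 and 0 at P14. For Orc1 the olfactory bulb gave 11.8, 19.8 and 23.7 at P1, then 19.7, 23.6 and 28.5 at P7, then 0, 15.2 and 13.9 at P14. It was thus absent from the reads of all 3 hippocampus P14 libraries, while cortex P14 replicate 3 was above every P1 library and the olfactory bulb P1 and P14 ranges overlapped. By limma Orc1 fell in the cortex (-2.17 ± 0.74, adjusted p = 0.0192). Orc1 did not pass in the olfactory bulb (-1.59 ± 0.91, adjusted p = 0.154). Orc1 had no read at P14 in the hippocampus, at least 23.3-fold lower than at P1 (adjusted p = 5.57e-05), a bound that covers counting error only. Orc1 lost its cortex call under quantile normalization or edgeR, or without P1 replicate 2 (-2.12), without P14 replicate 1 (-1.74) or without P14 replicate 4 (-1.81), where the adjusted p reached 0.239. Exons of Orc1 share 10.8% of their bases with the transcript Gm12743 on the other strand in GENCODE M21, and the strand setting of the counts is not given in the sources used here.

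Orc6, the smallest subunit of the complex, was measured at 90.1, 67 and 84.4 at P1, then 67.5, 60.3 and 72.1 at P7, then 76.8, 81.8, 73.2 and 88.8 at P14 in the cortex. In the hippocampus it was at 99, 102 and 102 at P1, then 74.9, 60.7 and 50.1 at P7, then 46.2, 52.9 and 48.4 at P14. Olfactory bulb Orc6 stood at 112, 100.4 and 104 at P1, then 74.97, 65.1 and 68.2 at P7, then 69.6, 11.03 and 68.03 at P14. Cortex P1 and P14 overlapped, and in the other 2 regions P14 lay below P1, with olfactory bulb P14 replicate 2 far under the rest. From P1 to P14 Orc6 fell in the hippocampus (-1.02 ± 0.27, adjusted p = 0.00729) and the olfactory bulb (-1.45 ± 0.55, adjusted p = 0.0434). Orc6 missed the threshold in the cortex (0.00 ± 0.16, adjusted p = 0.998). Orc6 lost its olfactory bulb call under a pseudocount of 0.1, no filter, edgeR or DESeq2, or without P1 replicate 1 (-1.41), without P1 replicate 2 (-1.49) or without P1 replicate 3 (-1.46), where the adjusted p reached 0.102. Its cortex difference was 1 of the 2 smallest in size there.

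Cdc6, the loader that works with the origin recognition complex, was low in the cortex, with 7.67, 7.56 and 10.01 at P1, then 5.19, 13.1 and 7.704 at P7, then 0, 0.629, 3.15 and 0 at P14. Its hippocampus values were 23.1, 25.4 and 29.5 at P1, then 24.8, 10.01 and 8.52 at P7, then 0, 7.72 and 0 at P14. Cdc6 in the olfactory bulb was at 12.9, 26.9 and 22.1 at P1, then 6.76, 10.01 and 7.71 at P7, then 5.96, 0 and 0 at P14. In each region the P14 libraries were all under the P1 libraries, and 2 of the P14 libraries of each region had no read. Cdc6 fell from P1 to P14 in the hippocampus (-3.71 ± 0.84, adjusted p = 0.00337). Cdc6 kept 3 reads at P14 in the olfactory bulb, 13.4-fold lower than at P1 with a counting interval of 4.58 to 64.9 (adjusted p = 0.003). Cdc6 averaged under 10 in the cortex and was not tested there.

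Cdt1, which brings the ring to the origin, was at 30.1, 13.6 and 16.9 at P1, then 8.66, 9.28 and 6.798 at P7, then 0, 1.26, 8.51 and 14.5 at P14 in the cortex. Hippocampus libraries held Cdt1 at 22.8, 14.7 and 11.7 at P1, then 14.5, 6.88 and 2.84 at P7, then 5.37, 7.72 and 10.7 at P14. Olfactory bulb levels of Cdt1 were 12.2, 24.7 and 17.1 at P1, then 4.301, 2.86 and 6.53 at P7, then 0, 33.1 and 0 at P14. The cortex P14 libraries ran from no read up into the P1 range, and in the olfactory bulb replicate 2 was the highest library of the series while the other 2 had no read. On the log2 scale Cdt1 fell in the cortex (-2.23 ± 0.78, adjusted p = 0.0222). Cdt1 did not pass in the hippocampus (-0.95 ± 0.64, adjusted p = 0.239) or the olfactory bulb (-2.50 ± 1.16, adjusted p = 0.0882). Cdt1 lost its cortex call under quantile normalization, edgeR or DESeq2, or without P1 replicate 1 (-1.92), without P14 replicate 1 (-1.54) or without P14 replicate 2 (-1.93), where the adjusted p reached 0.187. Without P14 replicate 2, Cdt1 was called lower in the olfactory bulb (-4.19).

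Mcm10, a fork protein needed to start unwinding, was at 17.3, 26.4 and 11.3 at P1, then 7.501, 12.4 and 10.9 at P7, then 0, 0, 0 and 0.519 at P14 in the cortex. In the hippocampus Mcm10 held 18.5, 21.4 and 22.7 at P1, then 17.5, 19.4 and 17.03 at P7, then 2.15, 14.3 and 3.58 at P14. Its olfactory bulb values were 15.1, 23.3 and 18.8 at P1, then 6.14, 12.2 and 6.53 at P7, then 7.95, 4.14 and 1.39 at P14. All P14 libraries were under all P1 libraries in the 3 regions, and the cortex kept a single read at P14. Between P1 and P14 Mcm10 fell in the hippocampus (-1.85 ± 0.62, adjusted p = 0.0264) and the olfactory bulb (-2.04 ± 0.59, adjusted p = 0.0122). Mcm10 kept 1 read at P14 in the cortex, 171-fold lower than at P1 with a counting interval of 30.7 to 6.76e+03 (no test). Mcm10 lost its hippocampus call under quantile normalization, edgeR or DESeq2, or without P1 replicate 1 (-1.93), without P1 replicate 2 (-1.83), without P1 replicate 3 (-1.79), without P14 replicate 1 (-1.38) or without P14 replicate 3 (-1.65), where the adjusted p reached 0.321. Mcm10 lost its olfactory bulb call under quantile normalization, or without P1 replicate 2 (-1.90), where the adjusted p reached 0.0754.

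The GINS complex, which sits beside Cdc45 in the active helicase, was called gene by gene: Gins1 and Gins2 fell in the cortex and Gins3 in the olfactory bulb, and Gins4 was called in no region. Gins2 in the cortex was at 32.96, 34.3 and 38.2 at P1, then 23.1, 15.5 and 16.8 at P7, then 15.9, 3.14, 3.47 and 6.75 at P14. Gins2 in the hippocampus was at 27.8, 27.2 and 25.8 at P1, then 22.3, 22.5 and 13.2 at P7, then 0, 33.1 and 8.96 at P14. Gins2 in the olfactory bulb was at 13.98, 15.9 and 14.9 at P1, then 6.76, 5.72 and 11.3 at P7, then 5.96, 8.27 and 2.78 at P14. P1 and P14 were apart in the cortex and the olfactory bulb, where P7 and P14 overlapped, and in the hippocampus P14 replicate 2 was above P1. By limma Gins2 fell in the cortex (-2.36 ± 0.45, adjusted p = 0.000435). The log2 difference of Gins2 missed the threshold in the hippocampus (-2.0 ± 0.99, adjusted p = 0.115). Gins2 averaged under 10 in the olfactory bulb and was not tested there. Without P14 replicate 2 it was called lower in the hippocampus (-3.15, adjusted p = 0.00782). Exons of Gins2 share 67.3% of their bases with Gse1 on the other strand, so its reads cannot be told apart from those of Gse1 without a strand setting.

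Gins3 and E2f1 had the 2 largest differences of the olfactory bulb, where Gins3 stood at 25.5, 22.5 and 12.7 at P1, then 9.83, 19.3 and 15.4 at P7, then 0, 2.76 and 0 at P14. The P14 libraries there held 2 reads in all, in replicate 2. Gins3 did not pass in the hippocampus (-0.54 ± 0.82, adjusted p = 0.615). Gins3 kept 2 reads at P14 in the olfactory bulb, 19.7-fold lower than at P1 with a counting interval of 5.45 to 163 (adjusted p = 0.00063). Gins3 averaged under 10 in the cortex and was not tested there. Gins4 was among the 2 least different genes of the hippocampus, where it stood at 40.6, 44.5 and 32.6 at P1, then 21.7, 23.1 and 29.3 at P7, then 22.6, 27.6 and 94.95 at P14. P14 replicate 3 was far above the rest and the others were under P1. Gins4 missed the threshold in the cortex (0.44 ± 0.28, adjusted p = 0.186), the hippocampus (0.01 ± 0.51, adjusted p = 0.991) and the olfactory bulb (-0.38 ± 0.38, adjusted p = 0.416). Gins1 fell in the cortex (-2.91 ± 0.48, adjusted p = 0.000125) and differed by -2.45 ± 1.12 in the hippocampus (adjusted p = 0.0888) and -0.55 ± 0.46 in the olfactory bulb (adjusted p = 0.327). Cdc45 passed in no region, with differences of -1.30 ± 0.55, -1.05 ± 0.77 and -1.23 ± 0.53 (adjusted p = 0.0512, 0.283 and 0.069).

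**Figure D2:**
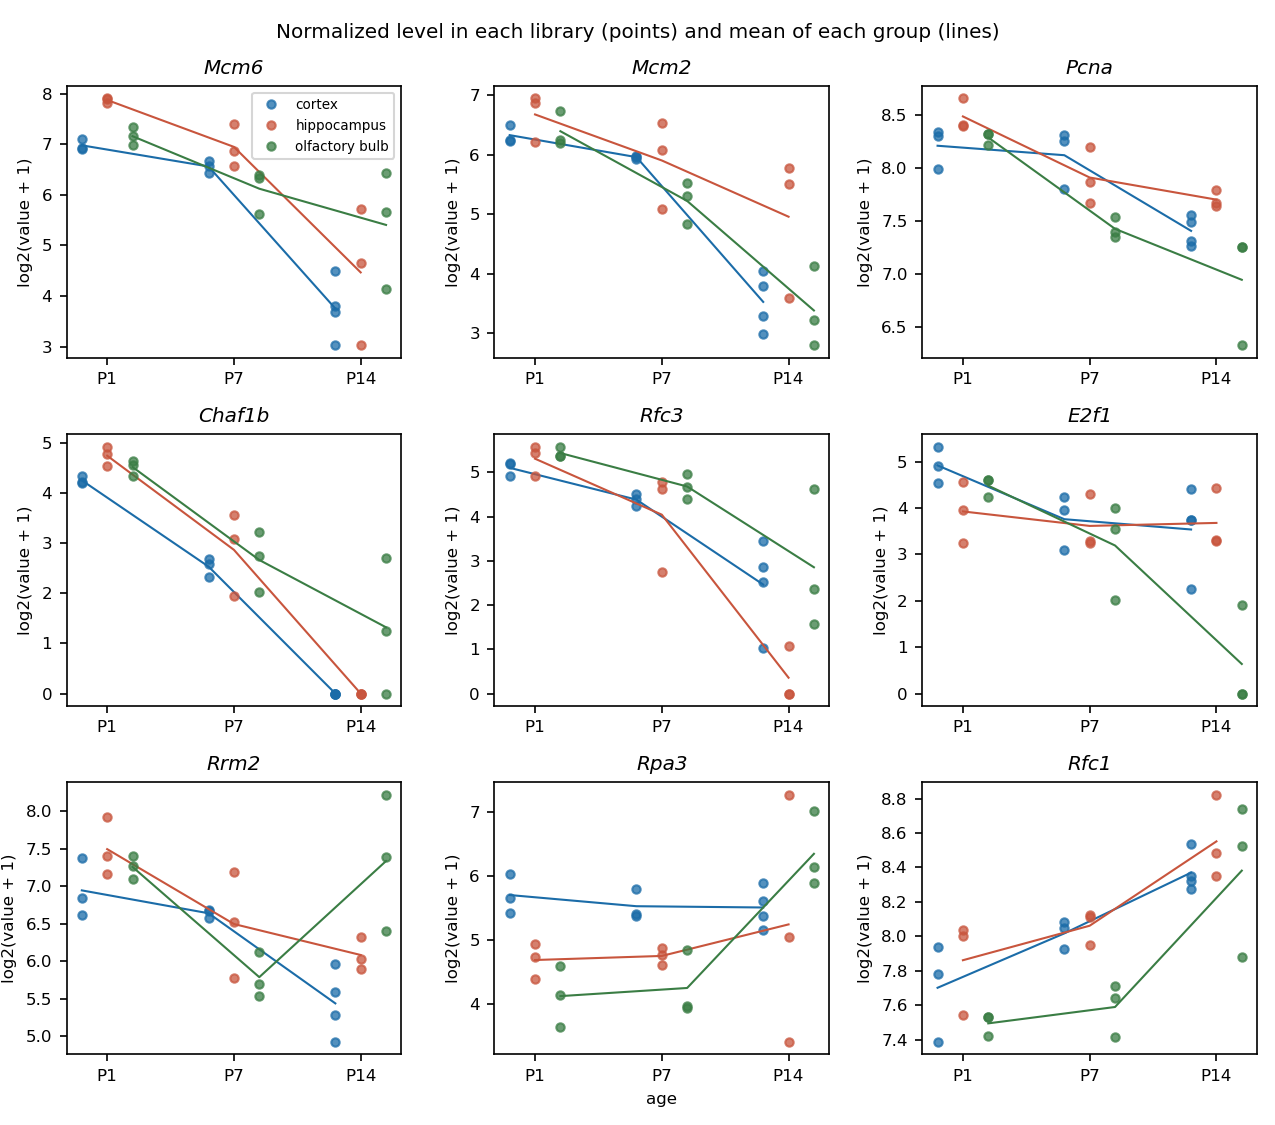
Each panel shows 1 gene as log2(normalized reads + 1) in every developmental library (points, coloured by region) against age, with lines through the group means. Mcm6, Mcm2, Pcna and Chaf1b decline in all 3 regions, Rrm2 is high again at P14 in the olfactory bulb, Rpa3 is higher at P14 there, and Rfc1 rises in each region.

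Polymerase and primase genes fell in 6 of 8 cases in the cortex, 5 of 9 in the hippocampus and 6 of 8 in the olfactory bulb, and none rose. Pola1, the catalytic subunit of polymerase alpha, had cortex levels of 132, 151 and 121 at P1, then 98.1, 114 and 124 at P7, then 35.2, 61, 112 and 44.1 at P14. In the hippocampus Pola1 was at 119.7, 102 and 108 at P1, then 138, 87.6 and 102 at P7, then 121, 18.7 and 44.8 at P14. For Pola1 the olfactory bulb gave 138, 134 and 131 at P1, then 118, 138 and 158 at P7, then 87.5, 110.3 and 49.98 at P14. P14 lay below P1 in the cortex and the olfactory bulb, and in the hippocampus 1 P14 library was just above the highest P1 library while the other 2 were the lowest of the series. On the log2 scale Pola1 fell in the cortex (-1.22 ± 0.30, adjusted p = 0.00268) and the olfactory bulb (-0.77 ± 0.27, adjusted p = 0.0331). The log2 difference of Pola1 missed the threshold in the hippocampus (-1.21 ± 0.51, adjusted p = 0.0703). Pola1 lost its olfactory bulb call under edgeR, or without P1 replicate 1 (-0.75), without P1 replicate 2 (-0.77), without P1 replicate 3 (-0.79) or without P14 replicate 3 (-0.45), where the adjusted p reached 0.0884. Without P14 replicate 1 Pola1 was called lower in the hippocampus (-1.88, adjusted p = 0.00145).

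Prim1, the primase subunit that makes the RNA primer, was at 67.05, 51.1 and 52.3 at P1, then 31.2, 30.9 and 28.6 at P7, then 5.297, 8.18, 10.1 and 12.98 at P14 in the cortex. Hippocampus Prim1 was at 67.3, 53.5 and 75.6 at P1, then 65.2, 35.7 and 23.7 at P7, then 27.9, 76.1 and 16.1 at P14. Olfactory bulb Prim1 was at 81.7, 75.7 and 84.4 at P1, then 51.6, 53.6 and 58.7 at P7, then 53.7, 22.1 and 11.1 at P14. The cortex ages were fully apart, and hippocampus P14 replicate 2 was at the top of that series. Between P1 and P14 Prim1 fell in the cortex (-2.56 ± 0.30, adjusted p = 6.14e-06) and the olfactory bulb (-1.72 ± 0.45, adjusted p = 0.00736). Prim1 did not pass in the hippocampus (-0.97 ± 0.54, adjusted p = 0.163). Without P14 replicate 2 Prim1 was called lower in the hippocampus too (-1.56, adjusted p = 0.0133). Its partner Prim2 fell in the cortex (-0.97 ± 0.27, adjusted p = 0.0059). In the olfactory bulb Prim2 had 1 of the 2 smallest differences, with 62.02, 66.9 and 64.5 at P1, then 52.8, 58.6 and 55.8 at P7, then 69.6, 60.6 and 56.9 at P14. P1 and P14 overlapped there, at -0.05 ± 0.22 (adjusted p = 0.857).

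Pole, the catalytic subunit of the leading-strand polymerase epsilon, was at 61.7, 55.9 and 75.2 at P1, then 62.3, 49.5 and 56.2 at P7, then 20.4, 28.9, 13.9 and 9.35 at P14 in the cortex. In the hippocampus Pole was at 95.8, 80.2 and 73.1 at P1, then 66.4, 78.2 and 52.04 at P7, then 42.99, 67.3 and 17.9 at P14. For Pole the olfactory bulb gave 53.4, 72.2 and 81.6 at P1, then 27.04, 70.1 and 68.2 at P7, then 33.8, 13.8 and 40.3 at P14. P14 was below P1 without overlap in each region, and below P7 in the cortex. By limma Pole fell in the cortex (-1.87 ± 0.32, adjusted p = 0.000161), the hippocampus (-1.12 ± 0.43, adjusted p = 0.0479) and the olfactory bulb (-1.32 ± 0.47, adjusted p = 0.0321). Pole lost its hippocampus call under a pseudocount of 0.1, no filter, TMM scaling, quantile normalization, edgeR or DESeq2, or without P1 replicate 1 (-1.01), without P1 replicate 2 (-1.14), without P1 replicate 3 (-1.21), without P14 replicate 1 (-1.22) or without P14 replicate 3 (-0.61), where the adjusted p reached 0.143. Pole lost its olfactory bulb call without P1 replicate 2 (-1.28), without P1 replicate 3 (-1.19) or without P14 replicate 2 (-0.87), where the adjusted p reached 0.106.

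Of the remaining polymerase genes, Pold3 fell in the cortex and the olfactory bulb (-1.69 ± 0.23 and -1.23 ± 0.24), Pold2 in the hippocampus and the olfactory bulb (-2.17 ± 0.70 and -1.42 ± 0.44) and Pola2 in the cortex and the hippocampus (-1.21 ± 0.44 and -2.05 ± 0.63). Pole2 fell in the hippocampus (-2.65 ± 0.94, adjusted p = 0.0355), and in the olfactory bulb its 3 P14 reads left it 12.3-fold lower than at P1, with a counting interval of 4.20 to 59.5 (adjusted p = 0.00133). Not past the threshold were Pold3 in the hippocampus (-0.66 ± 0.26, adjusted p = 0.0533), Pold2 in the cortex (-0.57 ± 0.26, adjusted p = 0.0728), Pola2 in the olfactory bulb (-1.07 ± 0.55, adjusted p = 0.118) and Prim2 in the hippocampus (-0.98 ± 0.45, adjusted p = 0.0888). Pold1 fell in the hippocampus (-1.99 ± 0.64, adjusted p = 0.0231), and its cortex difference was -0.65 ± 0.56 (adjusted p = 0.323).

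The clamp and its loader split in direction: 5 of 6 fell and 1 rose in the cortex, and 4 of 6 fell and 1 rose in the hippocampus and in the olfactory bulb. Pcna, the sliding clamp, lies at chr2:132249162-132253314 (mm10, minus strand) and was at 322, 252 and 314 at P1, then 221, 304 and 315 at P7, then 187, 153, 157 and 179 at P14 in the cortex. Hippocampus Pcna was at 402, 338 and 335 at P1, then 291, 233 and 202 at P7, then 198, 221 and 202 at P14. Olfactory bulb Pcna was at 318, 318 and 296 at P1, then 167, 162 and 184 at P7, then 151, 152 and 79.1 at P14. Every P14 library was below every P1 library of its region, and below every P7 library in the cortex and the olfactory bulb. From P1 to P14 Pcna fell in the cortex (-0.80 ± 0.14, adjusted p = 0.000274), the hippocampus (-0.79 ± 0.17, adjusted p = 0.003) and the olfactory bulb (-1.34 ± 0.24, adjusted p = 0.000671).

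Rfc1, the large subunit of the clamp loader, went the other way. It lies at chr5:65261850-65335670 (mm10, minus strand) and held 166, 219 and 244 at P1, then 242, 269.8 and 263 at P7, then 325, 369.8, 319 and 309 at P14 in the cortex. The hippocampus had Rfc1 at 256, 262 and 186 at P1, then 278, 276 and 246 at P7, then 451, 325 and 357 at P14. The olfactory bulb had Rfc1 at 171, 184 and 184 at P1, then 169.6, 209 and 199 at P7, then 368, 234 and 426 at P14. Each P14 library was above each P1 and P7 library of its region. Rfc1 rose from P1 to P14 in the cortex (0.67 ± 0.13, adjusted p = 0.000503), the hippocampus (0.69 ± 0.19, adjusted p = 0.0093) and the olfactory bulb (0.89 ± 0.21, adjusted p = 0.0047). The direction was the same under each of the scalings tried.

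Rfc3, a small subunit of the same loader, was at 35.8, 28.96 and 35.7 at P1, then 20.2, 17.8 and 21.8 at P7, then 9.84, 6.29, 4.73 and 1.04 at P14 in the cortex. In the hippocampus it was at 29.2, 46.3 and 42.4 at P1, then 23.6, 26.3 and 5.68 at P7, then 0, 1.103 and 0 at P14. Its olfactory bulb values were 40.2, 40.1 and 46.9 at P1, then 24.6, 30.02 and 20.2 at P7, then 1.99, 4.14 and 23.6 at P14. P14 was far below P1 in all regions, with the one higher olfactory bulb library (replicate 3) at the P7 level. On the log2 scale Rfc3 fell in the cortex (-2.64 ± 0.48, adjusted p = 0.000291) and the olfactory bulb (-2.58 ± 0.66, adjusted p = 0.00606). Rfc3 kept 1 read at P14 in the hippocampus, 94.2-fold lower than at P1 with a counting interval of 16.9 to 3.72e+03 (adjusted p = 0.000101). Rfc5 fell in all 3 regions (-2.02 ± 0.31, -1.62 ± 0.47 and -3.07 ± 0.47), Rfc2 in the cortex and hippocampus (-0.68 ± 0.21 and -1.55 ± 0.53) and Rfc4 in the cortex and olfactory bulb (-1.30 ± 0.39 and -1.34 ± 0.48). Not called were Rfc2 in the olfactory bulb (-0.77 ± 0.34, adjusted p = 0.0766) and Rfc4 in the hippocampus (-0.71 ± 0.48, adjusted p = 0.237). Exons of Rfc2, Rfc4 and Rfc5 share 15.1%, 12.7% and 10.7% of their bases with Lat2, Eif4a2 and Wsb2 on the other strand.

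No gene of the single-strand binding complex Rpa fell in any region. Rpa2, its middle subunit, was at 52.3, 27.96 and 42.1 at P1, then 30, 25.5 and 24.5 at P7, then 21.9, 19.5, 37.2 and 35.8 at P14 in the cortex. Hippocampus Rpa2 was at 19.2, 22.3 and 29.5 at P1, then 28.98, 37.5 and 30.3 at P7, then 45.1, 29.8 and 34.04 at P14. Olfactory bulb Rpa2 was at 28.3, 25.98 and 22.6 at P1, then 11.7, 17.2 and 21.95 at P7, then 17.9, 6.89 and 29.2 at P14. P14 was above P1 in each hippocampus library and overlapped P1 in the other regions. The log2 difference of Rpa2 missed the threshold in the cortex (-0.51 ± 0.30, adjusted p = 0.155), the hippocampus (0.60 ± 0.38, adjusted p = 0.218) and the olfactory bulb (-0.69 ± 0.51, adjusted p = 0.271). Under quantile normalization Rpa2 was called higher in the hippocampus (1.02, adjusted p = 0.0404).

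Rpa3, the smallest subunit, had cortex values of 49.4, 64.7 and 41.8 at P1, then 40.4, 54.9 and 41.7 at P7, then 48.05, 34.6, 58.7 and 40.5 at P14. Its hippocampus values were 29.6, 20.05 and 25.8 at P1, then 23.6, 26.3 and 28.4 at P7, then 9.67, 153 and 32.2 at P14. Its olfactory bulb values were 11.5, 16.7 and 23.2 at P1, then 14.7, 14.3 and 27.9 at P7, then 69.6, 128 and 58.3 at P14. The cortex overlapped, hippocampus P14 replicate 2 stood far above the rest, and all olfactory bulb P14 libraries were above all younger ones. By limma Rpa3 rose in the olfactory bulb (2.22 ± 0.43, adjusted p = 0.00119). Rpa3 did not pass in the cortex (-0.19 ± 0.24, adjusted p = 0.491) or the hippocampus (0.56 ± 0.75, adjusted p = 0.567). The cortex sign of Rpa3 depends on the scaling and is positive with TMM (0.08). Rpa1, the large subunit, rose in the hippocampus (by 0.94 ± 0.25, adjusted p = 0.00811) and in the olfactory bulb (by 0.97 ± 0.36, adjusted p = 0.0382), and differed by 0.22 ± 0.16 in the cortex (adjusted p = 0.249).

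Both genes of Okazaki fragment joining fell in every region. Fen1, the nuclease that trims the flap left by the primer, was at 26.1, 19.6 and 32.8 at P1, then 19.04, 28.6 and 14.5 at P7, then 3.03, 1.26, 4.1 and 3.12 at P14 in the cortex. In the hippocampus Fen1 was at 37.4, 42.3 and 23.3 at P1, then 23.6, 18.1 and 1.89 at P7, then 3.22, 0 and 8.96 at P14. For Fen1 the olfactory bulb gave 23.7, 27.7 and 32.5 at P1, then 15.98, 17.2 and 13.6 at P7, then 1.99, 17.9 and 9.72 at P14. The cortex P14 libraries stood below all others, and in the other regions P14 was below P1 and overlapped P7. From P1 to P14 Fen1 fell in the cortex (-2.84 ± 0.41, adjusted p = 4.23e-05), the hippocampus (-3.30 ± 0.95, adjusted p = 0.0134) and the olfactory bulb (-1.76 ± 0.61, adjusted p = 0.0286). Fen1 lost its hippocampus call under quantile normalization, where the adjusted p reached 0.0782. Without P1 replicate 2 it stood at the threshold (-3.14, adjusted p = 0.05). Fen1 lost its olfactory bulb call without P1 replicate 1 (-1.88), without P1 replicate 2 (-1.76) or without P1 replicate 3 (-1.65), where the adjusted p reached 0.0925. An antisense gene, Gm10143, covers 78.8% of the exon bases of Fen1, and reads of the 2 strands cannot be told apart here.

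Lig1, the ligase that seals the fragments, was at 79.8, 86.9 and 89.5 at P1, then 40.4, 47.2 and 53.02 at P7, then 13.2, 10.7, 25.5 and 25.96 at P14 in the cortex. Hippocampus Lig1 was at 116, 95.3 and 86.01 at P1, then 88.2, 67.6 and 67.2 at P7, then 26.9, 46.3 and 85.99 at P14. Olfactory bulb Lig1 was at 110.4, 116 and 93.8 at P1, then 50.4, 72.2 and 75.3 at P7, then 33.8, 53.8 and 12.5 at P14. The highest hippocampus P14 library was level with the lowest P1 library there, while P1 and P14 were apart in the other 2 regions. Lig1 fell from P1 to P14 in the cortex (-2.22 ± 0.30, adjusted p = 2.07e-05), the hippocampus (-1.03 ± 0.38, adjusted p = 0.0419) and the olfactory bulb (-1.86 ± 0.44, adjusted p = 0.00396). Lig1 lost its hippocampus call under quantile normalization, edgeR or DESeq2, or without P1 replicate 1 (-0.91), without P1 replicate 2 (-1.05), without P1 replicate 3 (-1.13), without P14 replicate 1 (-0.63) or without P14 replicate 2 (-1.01), where the adjusted p reached 0.137.

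Nucleotide supply genes fell in 3 of 3 cases in the cortex and 4 of 4 in the hippocampus, but in 1 of 3 in the olfactory bulb. Rrm2, the regulated subunit of ribonucleotide reductase, had cortex levels of 165, 97.2 and 114 at P1, then 100.4, 94.3 and 102 at P7, then 46.9, 37.7, 29.3 and 61.3 at P14. Hippocampus levels of Rrm2 were 242, 168 and 142 at P1, then 145, 90.7 and 53.9 at P7, then 64.5, 58.4 and 78.8 at P14. Olfactory bulb levels of Rrm2 were 168, 154 and 136 at P1, then 45.5, 50.8 and 68.8 at P7, then 83.5, 298 and 167 at P14. The olfactory bulb went down at P7 and was back at or above the P1 level at P14 in 2 of 3 libraries, and each P14 library there was above each P7 library. On the log2 scale Rrm2 fell in the cortex (-1.51 ± 0.24, adjusted p = 9.60e-05) and the hippocampus (-1.42 ± 0.35, adjusted p = 0.00542). Rrm2 did not pass in the olfactory bulb (0.08 ± 0.38, adjusted p = 0.871). From P7 to P14 Rrm2 rose in the olfactory bulb by 1.55 ± 0.38 (adjusted p = 0.00642), after a P1 to P7 difference of -1.47 ± 0.38 (adjusted p = 0.0313). Its partner Rrm1 fell in all 3 regions, at -1.06 ± 0.17, -0.89 ± 0.22 and -0.52 ± 0.20 (adjusted p = 7.93e-05, 0.00507 and 0.0458).

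Tyms, which makes thymidylate, was at 42.6, 32.7 and 42.3 at P1, then 43.3, 27.8 and 27.2 at P7, then 10.97, 4.402, 8.51 and 12.5 at P14 in the cortex. In the hippocampus Tyms was at 47.4, 28.5 and 39.9 at P1, then 30.8, 40.7 and 15.1 at P7, then 10.7, 0 and 7.17 at P14. For Tyms the olfactory bulb gave 36.6, 48.4 and 38.1 at P1, then 12.9, 30.02 and 23.7 at P7, then 41.7, 6.89 and 30.5 at P14. Cortex and hippocampus P14 libraries were below all younger ones, and olfactory bulb P14 libraries ran from under all younger ones up into the P1 range. Between P1 and P14 Tyms fell in the cortex (-2.07 ± 0.35, adjusted p = 0.000154) and the hippocampus (-3.08 ± 0.83, adjusted p = 0.00888). Tyms missed the threshold in the olfactory bulb (-0.92 ± 0.59, adjusted p = 0.2). A pseudogene row, Tyms-ps, is present in the tables, so reads could be split between the copies.

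Tk1, which salvages thymidine, was at 21.3, 17.1 and 9.24 at P1, then 7.501, 6.19 and 5.89 at P7, then 0.757, 3.77, 3.47 and 1.04 at P14 in the cortex. Hippocampus Tk1 was at 13.2, 28.5 and 24.6 at P1, then 12.1, 18.1 and 17.98 at P7, then 0, 0 and 0 at P14. Olfactory bulb Tk1 was at 3.23, 8.81 and 9.93 at P1, then 4.92, 11.4 and 4.15 at P7, then 0, 9.65 and 2.78 at P14. No hippocampus P14 library had a read, the cortex was apart, and olfactory bulb values were low at each age. Tk1 had no read at P14 in the hippocampus, at least 17.6-fold lower than at P1 (adjusted p = 6.92e-05). Tk1 averaged under 10 in the cortex and olfactory bulb and was not tested there.

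Of the chromatin assembly and histone mRNA genes tested, 2 of 2 fell in the cortex and 2 of 3 in each of the other regions. Chaf1b, a subunit of the factor that deposits histones behind the fork, was at 17.6, 17.4 and 19.2 at P1, then 4.04, 5.41 and 4.99 at P7, then 0, 0, 0 and 0 at P14 in the cortex. In the hippocampus Chaf1b was at 22.1, 29.4 and 26.4 at P1, then 10.9, 7.51 and 2.84 at P7, then 0, 0 and 0 at P14. For Chaf1b the olfactory bulb gave 24.02, 19.4 and 22.6 at P1, then 3.07, 5.72 and 8.31 at P7, then 0, 1.38 and 5.55 at P14. The 7 P14 libraries of the cortex and hippocampus had no read, and the P7 libraries of all 3 regions lay between P14 and P1 in mean level. From P1 to P14 Chaf1b fell in the olfactory bulb (-3.20 ± 0.71, adjusted p = 0.0029). Chaf1b had no read at P14 in the cortex, at least 56.2-fold lower than at P1 (no test). Chaf1b had no read at P14 in the hippocampus, at least 20.7-fold lower than at P1 (adjusted p = 8.48e-05). Chaf1a, the large subunit, fell in all 3 regions (-1.51 ± 0.32, -2.49 ± 0.71 and -2.20 ± 0.81); its exons share 52.5% of their bases with Ubxn6 on the other strand.

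Slbp, which binds the stem-loop of histone mRNAs, had 69.04, 63.5 and 62.6 at P1, then 67.5, 61.9 and 85.2 at P7, then 33.3, 59.7, 50.8 and 20.2 at P14 in the cortex. In the hippocampus Slbp had 120.0, 94.9 and 114 at P1, then 73.7, 83.8 and 78.5 at P7, then 132, 66.2 and 37.6 at P14. For Slbp the olfactory bulb gave 82.8, 91.6 and 73.3 at P1, then 49.2, 45.03 and 69.4 at P7, then 65.6, 55.1 and 101 at P14. P1 and P14 were apart in the cortex and overlapped in the other 2 regions. Slbp fell from P1 to P14 in the cortex (-0.76 ± 0.30, adjusted p = 0.0402). Slbp missed the threshold in the hippocampus (-0.65 ± 0.38, adjusted p = 0.18) and the olfactory bulb (-0.20 ± 0.29, adjusted p = 0.578). Slbp lost its cortex call under no filter, TMM scaling, quantile normalization, edgeR or DESeq2, or without P1 replicate 1 (-0.72), without P1 replicate 2 (-0.78), without P1 replicate 3 (-0.79), without P14 replicate 1 (-0.70) or without P14 replicate 4 (-0.47), where the adjusted p reached 0.253. Without P14 replicate 1 Slbp was called lower in the hippocampus (-1.11, adjusted p = 0.00749).

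Of the G1/S genes tested, 2 of 2 fell in the cortex, 1 of 3 in the hippocampus and 2 of 2 in the olfactory bulb. Ccne1, a cyclin that drives entry into S phase, was at 6.25, 4.79 and 6.67 at P1, then 10.4, 8.51 and 15.9 at P7, then 1.14, 10.1, 16.1 and 15.1 at P14 in the cortex. Hippocampus Ccne1 was at 14.6, 13.8 and 14.1 at P1, then 16.9, 13.8 and 6.62 at P7, then 7.52, 3.31 and 0 at P14. Olfactory bulb Ccne1 was at 3.94, 8.81 and 4.96 at P1, then 7.99, 7.86 and 1.19 at P7, then 3.98, 1.38 and 0 at P14. In the cortex 3 of the 4 P14 libraries were above P1, and in the hippocampus all P14 libraries were below it. On the log2 scale Ccne1 fell in the hippocampus (-2.19 ± 0.78, adjusted p = 0.0349). Ccne1 kept 3 reads at P14 in the olfactory bulb, 3.84-fold lower than at P1 with a counting interval of 1.31 to 18.6 (no test). Ccne1 averaged under 10 in the cortex and was not tested there. Ccne1 lost its hippocampus call under a pseudocount of 0.1, quantile normalization, edgeR or DESeq2, or without P1 replicate 1 (-2.17), without P1 replicate 2 (-2.21), without P1 replicate 3 (-2.19) or without P14 replicate 3 (-1.32), where the adjusted p reached 0.595.

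Its relative Ccne2 was at 10.5, 17.1 and 14.9 at P1, then 18.5, 15.5 and 13.1 at P7, then 6.05, 3.14, 5.68 and 5.71 at P14 in the cortex. In the hippocampus Ccne2 was at 35.6, 25.4 and 58.98 at P1, then 25.96, 18.1 and 16.1 at P7, then 12.9, 9.92 and 30.5 at P14. For Ccne2 the olfactory bulb gave 24.4, 36.5 and 36.95 at P1, then 26.4, 22.2 and 20.2 at P7, then 25.8, 8.27 and 6.94 at P14. Cortex P14 was below all younger libraries, and in the other 2 regions 1 P14 library reached the P1 range. Between P1 and P14 Ccne2 fell in the cortex (-1.31 ± 0.38, adjusted p = 0.00813) and the olfactory bulb (-1.40 ± 0.49, adjusted p = 0.0298). Ccne2 did not pass in the hippocampus (-1.20 ± 0.53, adjusted p = 0.0777). Ccne2 lost its cortex call under quantile normalization, where the adjusted p reached 0.558. Ccne2 lost its olfactory bulb call under quantile normalization, or without P1 replicate 2 (-1.31), without P1 replicate 3 (-1.30), without P14 replicate 2 (-1.18) or without P14 replicate 3 (-1.07), where the adjusted p reached 0.0997. Without P14 replicate 3 it was called lower in the hippocampus (-1.65, adjusted p = 0.0138). Exons of Ccne2 share 17.4% of their bases with Ints8 on the other strand.

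E2f1, a transcription factor that activates many genes of this set, was at 22.2, 39.04 and 28.7 at P1, then 7.501, 17.8 and 14.5 at P7, then 3.78, 20.1, 12.3 and 12.5 at P14 in the cortex. Hippocampus E2f1 was at 14.6, 8.46 and 22.7 at P1, then 18.7, 8.76 and 8.52 at P7, then 20.4, 8.82 and 8.96 at P14. Olfactory bulb E2f1 was at 17.9, 23.3 and 23.2 at P1, then 3.07, 15.01 and 10.7 at P7, then 0, 2.76 and 0 at P14. The olfactory bulb kept 2 reads at P14, the cortex P14 libraries were below P1, and the hippocampus ages overlapped. By limma E2f1 fell in the cortex (-1.38 ± 0.48, adjusted p = 0.0217). E2f1 missed the threshold in the hippocampus (-0.25 ± 0.59, adjusted p = 0.754). E2f1 kept 2 reads at P14 in the olfactory bulb, 20.9-fold lower than at P1 with a counting interval of 5.79 to 173 (adjusted p = 0.00102). E2f1 lost its cortex call under TMM scaling, quantile normalization, edgeR or DESeq2, or without P1 replicate 2 (-1.18) or without P1 replicate 3 (-1.39), where the adjusted p reached 0.264.

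**Figure D3:**
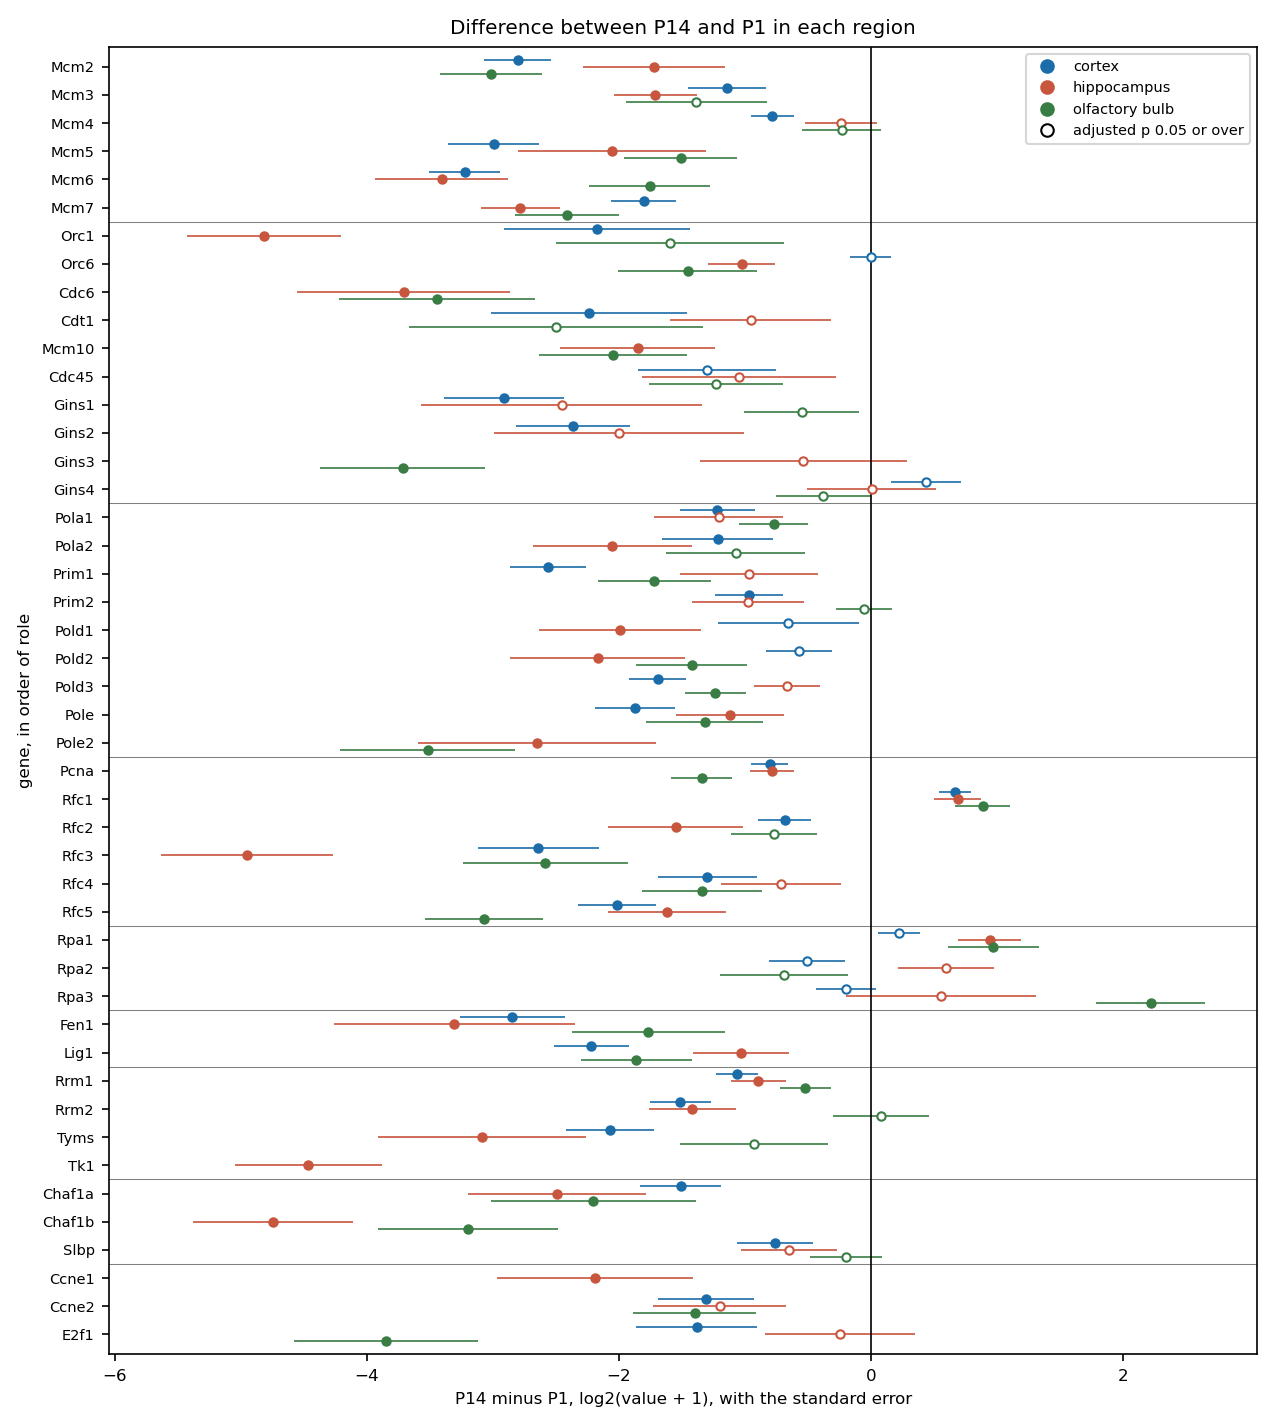
Points give the difference between P14 and P1 in log2(normalized reads + 1) for each gene tested (rows, in order of role), with bars of 1 SE, coloured by region; open points did not pass the adjusted threshold. Most filled points lie left of 0, and Rfc1 is the row with all 3 regions filled on the right.

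Markers of other cell types changed with age beside these genes. Of all genes 40.3%, 28.5% and 31.4% fell from P1 to P14 in the cortex, hippocampus and olfactory bulb, and 24.0%, 21.0% and 24.8% rose. The marker counts here and in the next paragraph stand beside those shares. The sum of 10 neuroblast markers went from 9801 to 15350 normalized reads at P1 to 352 to 428 at P14 in the cortex, with 9 of the 9 tested genes falling. In the hippocampus it went from 17748 to 24860 down to 713 to 1286, with 7 of 9 falling and Dlx1, Dlx5 and Dlx6 at 0 at P14. In the olfactory bulb it went from 30080 to 33495 down to 2858 to 4696, with 10 of 10 falling. The neuroblast genes were thus high at P1 and lower, though mostly still detected, at P14.

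The sum of 11 astrocyte markers went the other way, from 21367 to 28254 at P1 to 498126 to 556451 at P14 in the cortex, where 10 of 11 rose. It went from 13834 to 15920 up to 427908 to 462044 in the hippocampus and from 5060 to 7176 up to 124799 to 141906 in the olfactory bulb, with 11 of 11 rising in both. Of 10 neuron markers 8 fell in the cortex, 8 in the hippocampus and 7 in the olfactory bulb, with 1 rising in the last. Of the neurogenic intermediate progenitor markers 2 of 3 tested fell in the cortex, 5 of 5 in the hippocampus and 4 of 5 in the olfactory bulb. Oligodendrocyte precursors, another dividing type, had 2 of 8 markers falling and 2 rising in the cortex, 1 falling and 3 rising of 7 in the hippocampus, and 5 of 7 rising in the olfactory bulb, where their sum went from 156 to 193 up to 1296 to 1372. Mature oligodendrocyte markers rose in 5 of 6, 3 of 3 and 4 of 4 cases, microglia markers in 8 of 8, 3 of 5 and 4 of 5, and endothelial markers rose in 1 of 7 in the cortex and 6 of 6 in the olfactory bulb and fell in 2 of 6 in the hippocampus. The part of these cell types in the change of the replication genes was not tested.

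**Figure D4:**
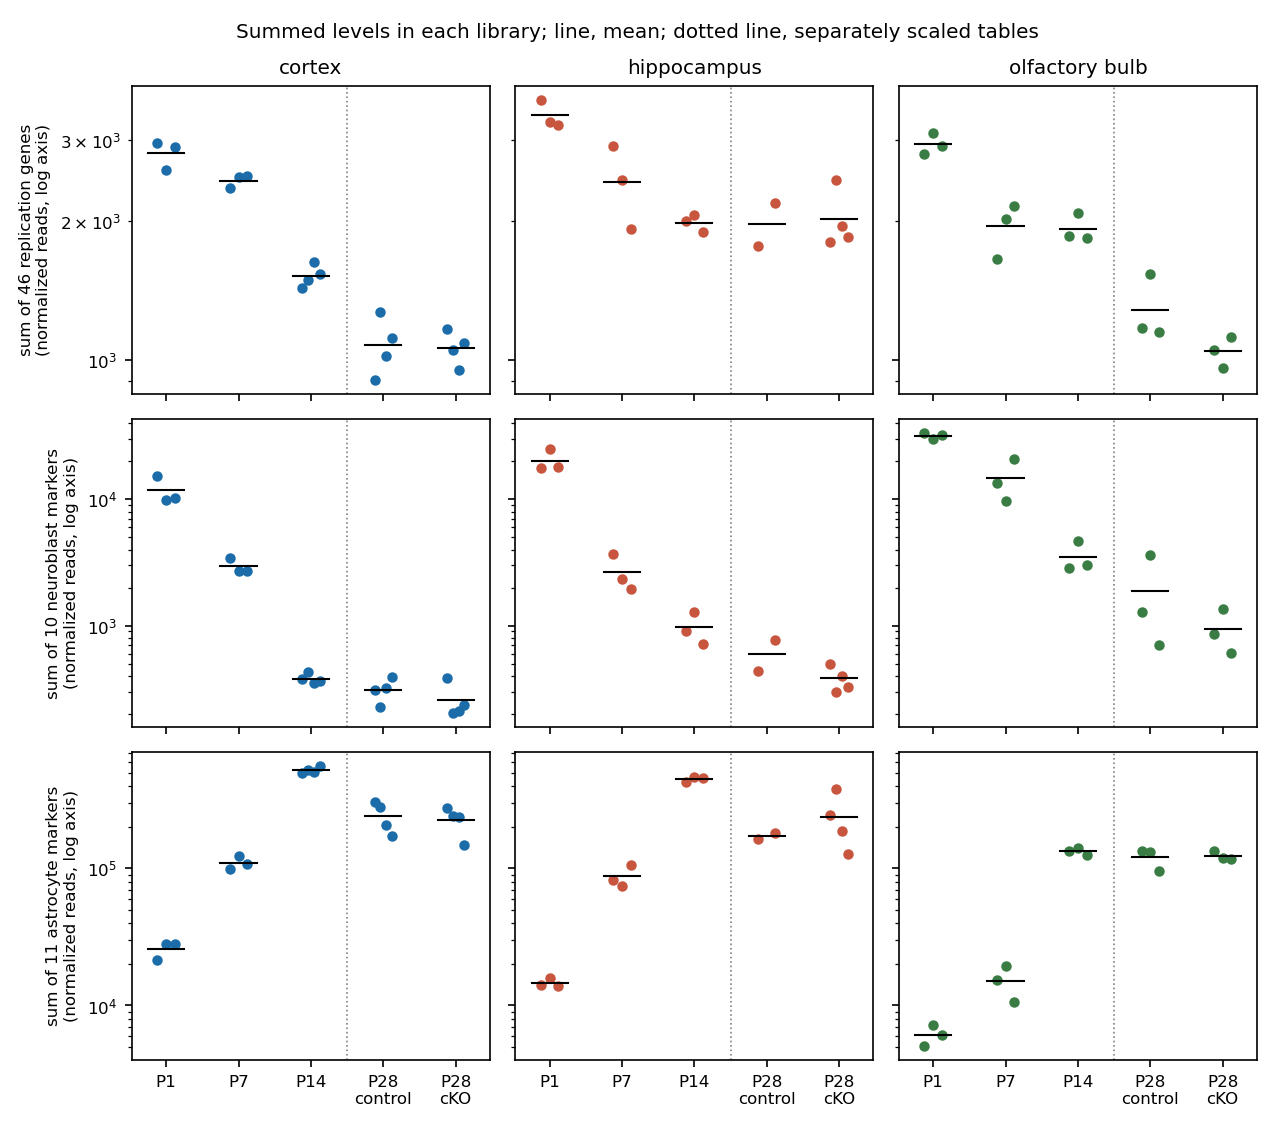
Each panel gives a summed level per library (points, normalized reads on a log axis) against age for 1 region. Rows of panels show the 46 replication genes, the neuroblast markers and the astrocyte markers. Short horizontal lines mark the group means. The vertical dotted line divides the developmental from the P28 libraries, whose tables were scaled separately. The replication sum of the cortex drops from 2815 at P1 to 1521 at P14 on average while neuroblast sums drop further and astrocyte sums climb.

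Whether the change from P1 to P14 differed between regions was tested directly in a joint fit of the 28 developmental libraries. Of all 12680 genes tested, 12.1% differed between hippocampus and cortex, 21.2% between olfactory bulb and cortex and 18.1% between olfactory bulb and hippocampus. Of the 46 replication genes 2, 6 and 5 did, in each comparison a smaller share than of all genes. For E2f1 the change in the olfactory bulb was lower than in the cortex, with a difference of log2 changes of -3.14 ± 0.93 (adjusted p = 0.0162), and lower than in the hippocampus, with -4.19 ± 0.96 (adjusted p = 0.00288). For Gins3 the change in the olfactory bulb was also lower, with -4.38 ± 1.13 (adjusted p = 0.00605) against the cortex and -3.70 ± 1.17 (adjusted p = 0.028) against the hippocampus. Tk1, without a read in the hippocampus at P14, differed between olfactory bulb and hippocampus by 3.72 ± 1.05 (adjusted p = 0.0137). Each of these 3 genes had at most 2 reads at P14 in 1 of the regions compared, so the fitted sizes depend on the added pseudocount.

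For Rrm2 the change in the olfactory bulb was higher than in the cortex, by 1.45 ± 0.49 (adjusted p = 0.035), and than in the hippocampus, by 1.46 ± 0.51 (adjusted p = 0.0449). The Rpa3 change was higher in the olfactory bulb than in the cortex, by 2.30 ± 0.77 (adjusted p = 0.0318), and the Orc6 change was lower there, at -1.62 ± 0.53 (adjusted p = 0.0301). The Mcm10 change was higher than in the cortex both in the hippocampus, by 2.53 ± 0.81 (adjusted p = 0.0398), and in the olfactory bulb, by 2.27 ± 0.81 (adjusted p = 0.0456). Rfc3, with 1 read in the hippocampus at P14, had a lower change there than in the cortex, at -2.90 ± 0.95 (adjusted p = 0.0448), and a higher one in the olfactory bulb than in the hippocampus, by 2.81 ± 0.98 (adjusted p = 0.0456). Mcm10 had 1 read over the cortex P14 libraries, so its fitted sizes depend on the pseudocount as well. Other pseudocounts were not tried in this joint fit, whose alternatives were TMM scaling, edgeR and leaving out each library. Over these alternatives the Mcm10 differences ran from 1.82 to 4.95 in the hippocampus and from 1.77 to 4.37 in the olfactory bulb. The 2 Rfc3 differences ran from -3.99 to -2.55 and from 1.87 to 4.33. Over 30 alternatives the 2 E2f1 differences, the Gins3 difference against the cortex and the Tk1 difference were called in every one, whereas both Rfc3 differences were lost in 20, the Mcm10 differences in 9 and 22, the Rrm2 differences in 9 and 18, the Rpa3 difference in 7, the Orc6 difference in 4 and the Gins3 difference against the hippocampus in 8. Under TMM scaling the lower share of the called region differences over all genes goes from 43.8% to 59.6% for hippocampus against cortex and from 37.6% to 50.3% for olfactory bulb against cortex.

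Other genes of the same pathway were taken from 3 lists. Their counts stand beside the shares of all genes that fell and rose from P1 to P14, which were 40.3% and 24.0% in the cortex, 28.5% and 21.0% in the hippocampus and 31.4% and 24.8% in the olfactory bulb. Of 30 further fork and licensing genes, 16 fell and 1 rose of 24 tested in the cortex, 15 fell of 25 in the hippocampus, and 13 fell and 1 rose of 25 in the olfactory bulb, with medians of -0.91, -1.15 and -0.95. The kinase gene Cdc7 fell in the cortex, by a log2 difference of -4.03 ± 0.59 (adjusted p = 4.71e-05) and Wdhd1, a polymerase alpha tether, at -3.41 ± 0.51 (adjusted p = 5.37e-05). Dbf4, the activating partner of Cdc7, fell in the hippocampus, at -2.90 ± 0.44 (adjusted p = 0.000200), where Dna2, a flap nuclease, kept 1 read at P14, 53.6-fold lower than at P1 with a counting interval of 9.61 to 2.12e+03 (adjusted p = 0.000190). In the olfactory bulb Timeless, a fork protection gene, had no read at P14 and was at least 17.1-fold lower (adjusted p = 1.54e-05), and Cdc7 kept 3 reads and was 27.9-fold lower, with a counting interval of 9.55 to 135 (adjusted p = 5.91e-05). The genes that rose were Pole4 in the cortex (by 0.46 ± 0.18, adjusted p = 0.0355) and Mcm9 in the olfactory bulb (by 1.5 ± 0.30, adjusted p = 0.00134).

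Of 18 other nucleotide and chromatin genes of S phase, 12 fell and 1 rose of 16 tested in the cortex, 14 and 1 of 17 in the hippocampus, and 9 and 1 of 16 in the olfactory bulb, with medians of -1.13, -1.18 and -0.98. The chromatin remodeller Hells fell in the 3 regions, at -3.61 ± 0.44, -2.80 ± 0.77 and -3.49 ± 0.90 (adjusted p = 8.93e-06, 0.0106 and 0.00670). Uhrf1, which guides maintenance methylation of new DNA, fell in the cortex, at -3.12 ± 0.53 (adjusted p = 0.000158), Shmt1, a folate enzyme, at -2.84 ± 0.73 in the hippocampus (adjusted p = 0.00681) and Dut, a dUTP hydrolase, at -1.90 ± 0.34 in the olfactory bulb (adjusted p = 0.000618). The gene that rose was the same in each region: Rrm2b, the ribonucleotide reductase subunit known to serve cells outside S phase, by 0.77 ± 0.14, 0.96 ± 0.22 and 1.53 ± 0.26 (adjusted p = 0.000343, 0.00356 and 0.000470).

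Of 26 G1/S regulators, 11 fell and 5 rose of 25 tested in the cortex, 10 and 6 of 25 in the hippocampus, and 7 and 6 of 24 in the olfactory bulb, with medians of -0.22, -0.64 and -0.00. In the cortex and the olfactory bulb these shares are near those of all genes. The falls with the greatest size were Ccna2, the S-phase cyclin A (-3.96 ± 0.52, adjusted p = 1.66e-05), and the repressor E2f7 (-3.81 ± 0.51, adjusted p = 1.83e-05) in the cortex. In the hippocampus they were the phosphatase Cdc25a (-4.02 ± 0.85, adjusted p = 0.00218) and E2f8 (-3.45 ± 0.89, adjusted p = 0.00699), and in the olfactory bulb E2f7 (-3.40 ± 0.44, adjusted p = 7.21e-05) and the kinase Cdk6 (-2.69 ± 0.41, adjusted p = 0.00024). Of the 3 pocket protein genes, whose products bind E2F factors, Rb1 rose in the cortex (1.34 ± 0.08, adjusted p = 1.02e-08) and hippocampus (1.49 ± 0.13, adjusted p = 2.09e-06), and Rbl2 in the olfactory bulb (1.14 ± 0.16, adjusted p = 0.000137). Rbl1 went the other way and fell in the cortex (-1.88 ± 0.37, adjusted p = 0.000507) and the olfactory bulb (-1.32 ± 0.36, adjusted p = 0.00838), with -0.86 ± 0.51 in the hippocampus (adjusted p = 0.185). E2f3 rose in the cortex (1.04 ± 0.17, adjusted p = 9.69e-05), and the cyclin gene Ccnd3 rose in the hippocampus (2.24 ± 0.47, adjusted p = 0.00218) and olfactory bulb (1.46 ± 0.40, adjusted p = 0.00866). The rises named are only the largest of each region, so Rb1 and Rbl2 are not described in the regions left out.

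At P28 the comparison of Gabbr1 cKO with control asked whether loss of this receptor subunit goes with a change in replication genes. None of the 46 genes was called in any region: 0 of 24 tested in the cortex, 0 of 34 in the hippocampus and 0 of 26 in the olfactory bulb, by limma-trend, edgeR or DESeq2. Over all genes limma called 0.00982% in the cortex (Gabbr1 alone), 0.0% in the hippocampus and 0.0% in the olfactory bulb. Gabbr1 itself was thus not called by limma in the hippocampus or the olfactory bulb, although its control and cKO values did not overlap there. The test can therefore miss differences of that size in these 2 regions, and the lack of calls does not show that the replication genes were unchanged. At an unadjusted p under 0.05 stood 1 replication gene in the cortex, 0 in the hippocampus and 1 in the olfactory bulb with limma (1, 0 and 2 with edgeR; 1, 1 and 2 with DESeq2). Over all genes 221, 296 and 349 were there with limma, and DESeq2 called 1, 1 and 22 genes and edgeR 1, 0 and 0. The median difference of the replication genes tested was 0.20, 0.10 and -0.29 in the 3 regions, beside -0.00, -0.04 and 0.02 for all genes. With 1 library left out the cortex median was as low as -0.09 (without control replicate 1) and the hippocampus median as low as -0.23 (without control replicate 1).

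The summed level of the 46 genes at P28 was 1079 ± 156 in cortex controls and 1063 ± 89 in cKO (SD, n = 4 each), 1977 ± 298 (n = 2) and 2021 ± 303 (n = 4) in the hippocampus, and 1286 ± 216 and 1043 ± 82 in the olfactory bulb (n = 3 each). Control and cKO ranges overlapped in the cortex and hippocampus. In the olfactory bulb 1149 to 1535 in controls lay above 959 to 1123 in cKO. As a percent of library reads these groups overlapped, with 0.0284% to 0.0485% in controls and 0.0237% to 0.0293% in cKO. The sum of 1535 was that of control replicate 2, which had little Rn45s and the fewest reads of the P28 libraries. Cortex libraries differed by whether they carried the tamoxifen label: the 5 without it had a read in 31 to 39 of the 46 genes, and the 3 with it in 43 to 45. Mcm6 was at 0 to 3.17 in the former and 8.77 to 23.5 in the latter, and each set held both genotypes. Rfc1 went the other way, at 241 to 350 against 189 to 197. Sums of the 46 genes overlapped, at 906 to 1273 against 1018 to 1119. Microglia marker sums were 157 to 207 against 698 to 1792, and mature oligodendrocyte sums 2384 to 6007 against 8623 to 14612. Astrocyte marker sums were 236002 to 304063 against 148334 to 208169. The part of these cell types was not tested. The split by label is also that between 2 rounds of deposit, by the accession numbers, so the label and the round cannot be told apart. With that split as a covariate no replication gene was called either.

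In the cortex Prim2 and Pole had the smallest unadjusted p. Prim2 was at 28.5, 72.4, 32.9 and 32.5 in control libraries against 21.3, 24.1, 11.2 and 14.4 in cKO. Control replicate 2 was far above the other controls, and the cKO values were all below the controls. The difference was -1.14 ± 0.46 (unadjusted p = 0.0267, adjusted p = 1). Pole was at 0, 7.01, 8.77 and 17.3 in control libraries against 22.4, 8.39, 11.2 and 19.2 in cKO, with overlapping groups and a difference of 1.31 ± 0.94 (unadjusted p = 0.182, adjusted p = 1). Without control replicate 1, the library at 0, that difference was 0.44.

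In the hippocampus Pcna was at 312 and 417 in control libraries against 155, 249.9, 293 and 220.2 in cKO. Both controls were above all cKO libraries, and the difference was -0.69 ± 0.34 (unadjusted p = 0.0688, adjusted p = 0.936). Orc1 was at 16.4 and 9.79 in control libraries against 14.5, 168, 23.95 and 28.5 in cKO. A single cKO library, replicate 2, stood far from the rest, the one with little Rn45s; the difference was 1.44 ± 0.93 (unadjusted p = 0.155, adjusted p = 0.936) with it and 0.72 without it.

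In the olfactory bulb Mcm6 was at 26.4, 78.3 and 31.2 in control libraries against 0.8596, 15.9 and 12.3 in cKO. The controls were above the cKO libraries without overlap, with control replicate 2 the highest. The difference was -2.46 ± 0.91 (unadjusted p = 0.0213, adjusted p = 0.877), -1.99 without that replicate and -1.46 without cKO replicate 1. Mcm5 was at 3.44, 106 and 1.89 in control libraries against 0, 0 and 2.17 in cKO. Its signal was nearly all in control replicate 2, so the difference of -2.92 ± 1.71 (unadjusted p = 0.117, adjusted p = 0.877) was -1.29 without it. That library, which also had little Rn45s, had the fewest reads of the P28 libraries (1859933). It held Cdc45 at 90.2, Chaf1b at 30.6, E2f1 at 28.9 and Mcm10 at 20.4, against 5.68 or less for each in the other 2 controls. For Cdc45 the cKO libraries held 10.1 to 30.9. Other genes were lowest of the controls in control replicate 2, such as Mcm3 (1.70 against 34.4 and 13.2) and Mcm7 (1.70 against 32.1 and 18.9). The neuroblast marker sum of control replicate 2 was 3638, against 697 and 1280 in the other controls and 603 to 1352 in the cKO libraries. The part of those cells in these levels was not tested.

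**Figure D5:**
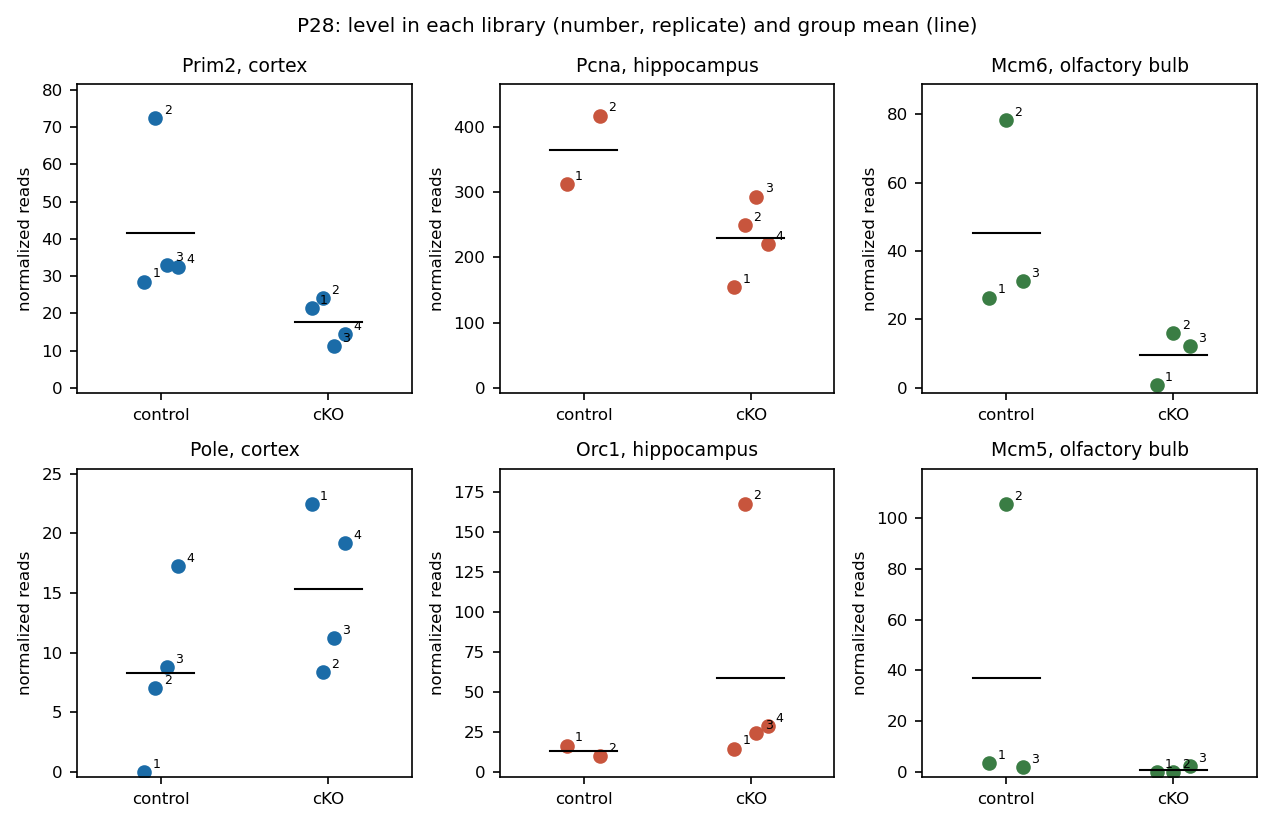
Normalized reads of the 2 replication genes with the smallest unadjusted p in each region at P28, in control and cKO libraries (points, numbered by replicate; lines, group means). Single libraries stand apart for Prim2 (cortex control 2, 72.4), Orc1 (hippocampus cKO 2, 168) and Mcm5 (olfactory bulb control 2, 106).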

How the data were processed

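Bulk RNA of 48 mouse libraries in 15 groups was analysed from 6 deposited tables, 1 per region for development (P1, P7, P14) and 1 per region for P28. Per the labels' protocols, libraries were prepared with a kit for very small RNA inputs. The submitters' processing notes name the genome build mm10, STAR 2.5.0a, DESeq2 1.20.0, FastQC and MultiQC without their roles; the annotation, counting program and strand setting are not given in the sources used here. The deposited values are a normalized signal, read counts divided by 1 factor per library, since each library's values are whole multiples (tolerance 0.1) of the value of 1 read; for olfactory bulb P28 cKO replicate 2 that value is close to 1, so the check is weak there. Of the gene symbols, 27 had been turned into dates, none of them a member of the set.

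Samples were grouped by their labelled region, age and genotype. Genes averaging at least 10 over a table were tested on log2(value + 1) with limma-trend (limma 3.58.1, R 4.3.3), with all 3 ages of a region in 1 fit and P28 fitted per region. P-values were adjusted by Benjamini-Hochberg over all genes tested, with a threshold of 0.05. Tables were scaled separately, so values are compared within a table; region differences used the recovered reads of the 28 developmental libraries under common median-ratio size factors. Where a group held no read, the fold is a lower bound against 3 reads over the group. With 1 to 3 reads it is a ratio with an exact 95% Poisson interval. Both the bound and the interval cover counting error only and leave out the spread between libraries. The processing was varied with other pseudocounts (0.1, 8), without a filter or with a stricter one (a mean of 100), with TMM and quantile scaling, with edgeR 4.0.16 and DESeq2 1.42.0 on the recovered reads, by leaving out each library, and by the deposit round of the cortex P28 libraries. The joint fit of region differences was varied only with TMM scaling, with edgeR and by leaving out each library. The scripts were tested on simulated counts. Members and gene lists were chosen with earlier results of these data known. Values in every library are given for 26 members that cover each role, for the 2 largest and 2 smallest differences from P1 to P14 per region, and for the 2 smallest p per region at P28.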

Additional observations from a re-analysis of the deposited data

Results flagged for a closer look

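Among 37 groups of 4 to 10 libraries whose values were tested for 1 library standing apart, 6 stood out. Chance alone flags about 1 in 20 where values are normally distributed, which cannot be assumed for groups resting on few reads. Whether 6 of 37 is more than chance would give therefore cannot be told. At P14 in the cortex the groups that stood out were a low Ccne2 (replicate 2, 3.14 normalized reads), a low Mcm5 (replicate 3, 1.58), a high Orc1 (replicate 3, 23.3) and Mcm10. For Mcm10 replicate 4 held the single read of the group (0.519), and such a group is flagged by construction. At P28 the groups that stood out were a high Prim2 in cortex control replicate 2 (72.4) and a high Orc1 in hippocampus cKO replicate 2 (168). Both genes were among those with the smallest unadjusted p of their region at P28, so their choice depended on these values.

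The change from P1 to P14 differed between regions for 13 pairs of gene and regions by the limma test of the difference, given as the difference of log2 changes. In each comparison of regions a smaller share of the replication genes than of all genes differed. Hippocampus minus cortex gave 2.53 for Mcm10 (adjusted p = 0.0398) and -2.90 for Rfc3 (adjusted p = 0.0448). Olfactory bulb minus cortex gave -3.14 for E2f1 (adjusted p = 0.0162), -4.38 for Gins3 (adjusted p = 0.00605), 2.27 for Mcm10 (adjusted p = 0.0456), -1.62 for Orc6 (adjusted p = 0.0301), 2.30 for Rpa3 (adjusted p = 0.0318) and 1.45 for Rrm2 (adjusted p = 0.035). Olfactory bulb minus hippocampus gave -4.19 for E2f1 (adjusted p = 0.00288), -3.70 for Gins3 (adjusted p = 0.028), 2.81 for Rfc3 (adjusted p = 0.0456), 1.46 for Rrm2 (adjusted p = 0.0449) and 3.72 for Tk1 (adjusted p = 0.0137).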

How the results depend on the processing

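No paired analysis was possible because the labels hold no replicate number that would tie samples of different groups together. No replication gene was called at P28 under any alternative run (0 to 0 when 1 library was left out). From P1 to P14 the count of changed genes was 31 in the cortex, 29 in the hippocampus and 28 in the olfactory bulb. A minimum mean of 100, which leaves few of these genes to test, gave 4, 6 and 4, and quantile normalization gave 18 in the hippocampus. For P14 against P7 (25, 11 and 15) that minimum gave 4, 2 and 3, and quantile normalization 6 in the hippocampus and 8 in the olfactory bulb. For P7 against P1 (2 in each region) the cortex gave 5 with a pseudocount of 8, 0 with the minimum of 100, 4 with TMM, 4 with quantile normalization and 5 with DESeq2. There the hippocampus gave 1 without a filter, 6 with quantile normalization and 1 with edgeR, and the olfactory bulb 4 with a pseudocount of 8, 1 without a filter, 9 with quantile normalization, 4 with edgeR and 8 with DESeq2. The cause was not tested.

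Leaving out 1 library gave 27 to 32, 17 to 32 and 17 to 28 changed genes for P14 against P1 in the cortex, hippocampus and olfactory bulb, 19 to 25, 5 to 17 and 8 to 19 for P14 against P7, and 0 to 3, 1 to 3 and 0 to 1 for P7 against P1. For the region differences it gave 0 to 5 (hippocampus minus cortex, 2 as reported), 3 to 7 (olfactory bulb minus cortex, 6) and 2 to 8 (olfactory bulb minus hippocampus, 5).

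Of the named calls from P1 to P14, 14 of 19 in the cortex, 11 of 18 in the hippocampus and 11 of 18 in the olfactory bulb held under every alternative. Signs turned only in log2 differences that had no call. Rpa3 in the cortex gave 0.081 with TMM, 0.202 with quantile normalization, 0.037 with edgeR and 0.060 with DESeq2. With quantile normalization Cdt1 gave 0.17 and E2f1 0.74 in the hippocampus, and Prim2 in the olfactory bulb gave 0.025 with edgeR and 0.024 with DESeq2. With 1 library left out, Orc6 in the cortex ran from -0.124 to 0.086 (negative without P1 replicate 2, P14 replicate 2 or P14 replicate 4), E2f1 in the hippocampus from -0.619 to 0.074 (positive without P1 replicate 3), Gins4 there from -0.621 to 0.391 (negative without P1 or P14 replicate 3), Prim2 in the olfactory bulb from -0.132 to 0.011 (positive without P14 replicate 3) and Rrm2 there from -0.364 to 0.547 (negative without P1 replicate 3 or P14 replicate 2). Among the developmental libraries depth limits those of the hippocampus and olfactory bulb at P14 most, where 1 read is worth more than in the cortex and several genes rest on 0 to 3 reads.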
